A study of Mus musculus with 6 samples.

Results

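The genes described here are 9 genes that mark Müller glia, the radial glia of the retina, or that change in glia under stress: Glul, Slc1a3, Rlbp1, Aqp4, Car14, Gfap, Vim, Sox9 and Dkk3. They were taken as a named list from the 20822 genes of a single-cell count table, and all 9 were found in it. For each gene the unique molecular identifiers (UMIs, 1 per captured RNA molecule) were summed over the cells of each annotated cell type in each library and expressed as CPM, the UMIs of the gene per 1000000 UMIs of that sum.

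The table came from Drop-seq, a droplet method that reads the 3′ ends of RNA, on retinas of mouse pups at postnatal day 14 in oxygen-induced retinopathy (OIR). In this model the pups breathe raised oxygen, which destroys retinal capillaries, and then return to room air, where the retina is short of oxygen and new vessels grow. Control pups were eNOS+/+ (C57BL/6J wildtype) and the others eNOS-/-, homozygous for a knockout allele of Nos3 (endothelial nitric oxide synthase, eNOS) and backcrossed to C57BL/6J. Pups of both genotypes were raised by CD1 foster mothers, 3 to 5 retinas were pooled for each of the 3 replicates per genotype, and magnetic beads against CD31, a protein of endothelial cells (ECs), enriched the suspensions for ECs, so that glia are cells the enrichment did not remove.

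Müller glia span the retina and serve its neurons. They take up glutamate and turn it into glutamine, recycle retinoid for the cones, move water and bicarbonate between neurons, vitreous and vessels, and under injury or hypoxia build up intermediate filaments, a response called gliosis. Astrocytes, the other macroglia of the retina, lie among the superficial vessels and carry the filament protein Gfap also in the healthy tissue.

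The 8944 cells held 10361314 UMIs, and 415 to 3710 cells and 617246 to 3350799 UMIs per library. In all, 3 barcodes were found in more than 1 library, and 2044 cells, 48 of the 184 Neuroglia cells among them, carried a barcode that differed only in its last base from that of a deeper cell of the same library. All 613 cells of eNOS+/+ replicate 2 carried the library name of eNOS+/+ replicate 1 in an older column of the annotation. Nos3 was at 19.4, 36.6 and 23.6 CPM in the ECs of the eNOS+/+ libraries and at 21.2, 16.1 and 32.8 CPM in those of the eNOS-/- libraries. These ranges overlapped. The reads come from the 3′ end, whose place relative to the disrupted part of Nos3 was not examined, so this level checks no label.

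The cells in which the 9 genes were sought carry the annotation Neuroglia, 184 cells with 136364 UMIs. A UMI of at least 2 of the 8 members other than Vim was present in 170 of them (92.4%), and 6 cells held none of the 8. Of 12 further Müller glia genes, 7 were highest in Neuroglia among the 10 cell types, and Rgr was at 0 there. Of 5 astrocyte genes in the table, 4 were also highest in Neuroglia, whose libraries held 125 to 1494 CPM of them in sum against 12784 to 17213 CPM of the Müller glia list. Neither sum belonged to Neuroglia alone: the Müller glia list reached 19399 to 24350.2 CPM in Immune cells and up to 14382 CPM in Optc+ cells, and the astrocyte list had a median of 1250.4 CPM in Optc+ cells against 650.2 CPM in Neuroglia. In Immune cells, however, 6 of the 12 Müller glia genes were at 0, against 1 in Neuroglia. Only 2 of them were highest in Immune cells, against 7 in Neuroglia. Of the markers of other cells, the 5 rod genes summed to 139 to 817 CPM, the 5 EC genes to 575 to 1669 CPM and the 5 mural genes to 0 to 1878 CPM in Neuroglia. The 5 genes of leukocytes and microglia summed to 0 to 59.8 CPM in Neuroglia, with Ptprc, C1qa and C1qb at 0. The part of cells of these other types in the Neuroglia values was not tested.

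The cells were unevenly spread over the libraries. The eNOS+/+ replicates held 27, 10 and 28 Neuroglia cells and the eNOS-/- replicates 33, 86 and 0. Replicate 3 of eNOS-/- had 0 of 415 cells in Neuroglia, which allows a share of up to 0.723%. This limit holds for cells so annotated. It leaves out 6 cells of this library, annotated as Structural ECs, that carried glial genes and are described below. Whether those cells are glia was not tested. The share of Neuroglia among all cells was 2.09% ± 0.515 (SD, n = 3) in eNOS+/+ and 1.39% ± 1.22 (SD, n = 3) in eNOS-/-, a difference of -0.706 percentage points that did not pass a two-sided exact permutation test (p = 0.5, where 0.1 is the smallest p that 3 against 3 can give). The share of all cells also depends on how many ECs the enrichment captured. Among cells other than ECs it was 8.79% ± 3.44 in eNOS+/+ and 4.03% ± 3.49 in eNOS-/- (SD, each n = 3). That difference was -4.76 points (exact permutation p = 0.3). Without eNOS-/- replicate 3 the difference in the share of all cells was -0.0123 points. Levels in Neuroglia are therefore given for 5 libraries. Sums of cells cannot tell fewer cells of a kind within Neuroglia from less RNA per cell.

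Promoter sequence is shown for 3 members whose UMIs lay in different places: Rlbp1 and Slc1a3, found mostly in Neuroglia, and Glul, found in Neuroglia and in ECs. Rlbp1 (ENSMUSG00000039194.16) lies at chr7:79374870-79387048, Slc1a3 (ENSMUSG00000005360.14) at chr15:8634124-8710764 and Glul (ENSMUSG00000026473.15) at chr1:153899944-153909723. Each sequence runs 5′ to 3′ on the gene's strand up to the RefSeq start of transcription (build GRCm38.p6), and bases inside the GENCODE vM21 gene were left off. Capitals mark matches on either strand to TATAAA, the core of a TATA box, or to TTCNNNGAA, the palindrome bound by STAT proteins. RefSeq promoters were found for 6 of the 9 members.
Rlbp1, chr7:79387049-79387277, minus strand: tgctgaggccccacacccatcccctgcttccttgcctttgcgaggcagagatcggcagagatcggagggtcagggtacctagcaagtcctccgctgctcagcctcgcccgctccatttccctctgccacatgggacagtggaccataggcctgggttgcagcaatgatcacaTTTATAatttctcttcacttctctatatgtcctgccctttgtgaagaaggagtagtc
Slc1a3, chr15:8710808-8711057, minus strand: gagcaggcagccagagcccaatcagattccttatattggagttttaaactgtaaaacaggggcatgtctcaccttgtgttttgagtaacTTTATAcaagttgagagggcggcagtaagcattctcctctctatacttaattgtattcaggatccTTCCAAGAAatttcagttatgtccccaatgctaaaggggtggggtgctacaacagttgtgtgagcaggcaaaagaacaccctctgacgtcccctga
Glul, chr1:153899679-153899928, plus strand: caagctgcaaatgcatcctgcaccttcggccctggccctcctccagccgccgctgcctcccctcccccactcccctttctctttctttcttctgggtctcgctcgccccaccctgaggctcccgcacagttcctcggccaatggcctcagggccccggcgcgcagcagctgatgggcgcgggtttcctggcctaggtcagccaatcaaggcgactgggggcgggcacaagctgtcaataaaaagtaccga
The letters TATAAA occur in the last 250 bases before the start in 12.4% of 32851 mouse promoters and TTCNNNGAA in 7.02%. The SOX core AACAAT, found in 9.42% of promoters, had 0 matches in these windows. Rlbp1 and Slc1a3 each held 1 match to TATAAA, Slc1a3 also 1 to TTCNNNGAA, and Glul none of the 3 motifs. The TATAAA matches lay 78 to 73 bases before the start in Rlbp1 and 161 to 156 bases before it in Slc1a3. Both were on the strand opposite to the gene. The matches are descriptions of the sequence and were not tested against the levels.

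The mean level in Neuroglia was above that in every other cell type for all 9 genes, but the distance to the next type differed. It exceeded the summed SDs for Glul, Slc1a3, Rlbp1, Aqp4, Car14 and Sox9, and not for Gfap, Vim and Dkk3. Slc1a3, Rlbp1, Aqp4, Car14 and Gfap had most of their UMIs in Neuroglia, Glul and Sox9 were also present in ECs, Dkk3 was as high in the Optc+ cells, and Vim was at a like level in vascular cells. The cell types had been clustered on these same UMIs, so that the order of the types is a description without a test. All genes together had 1.32% of their UMIs in Neuroglia and 79.5% in ECs.

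**Figure D1:**
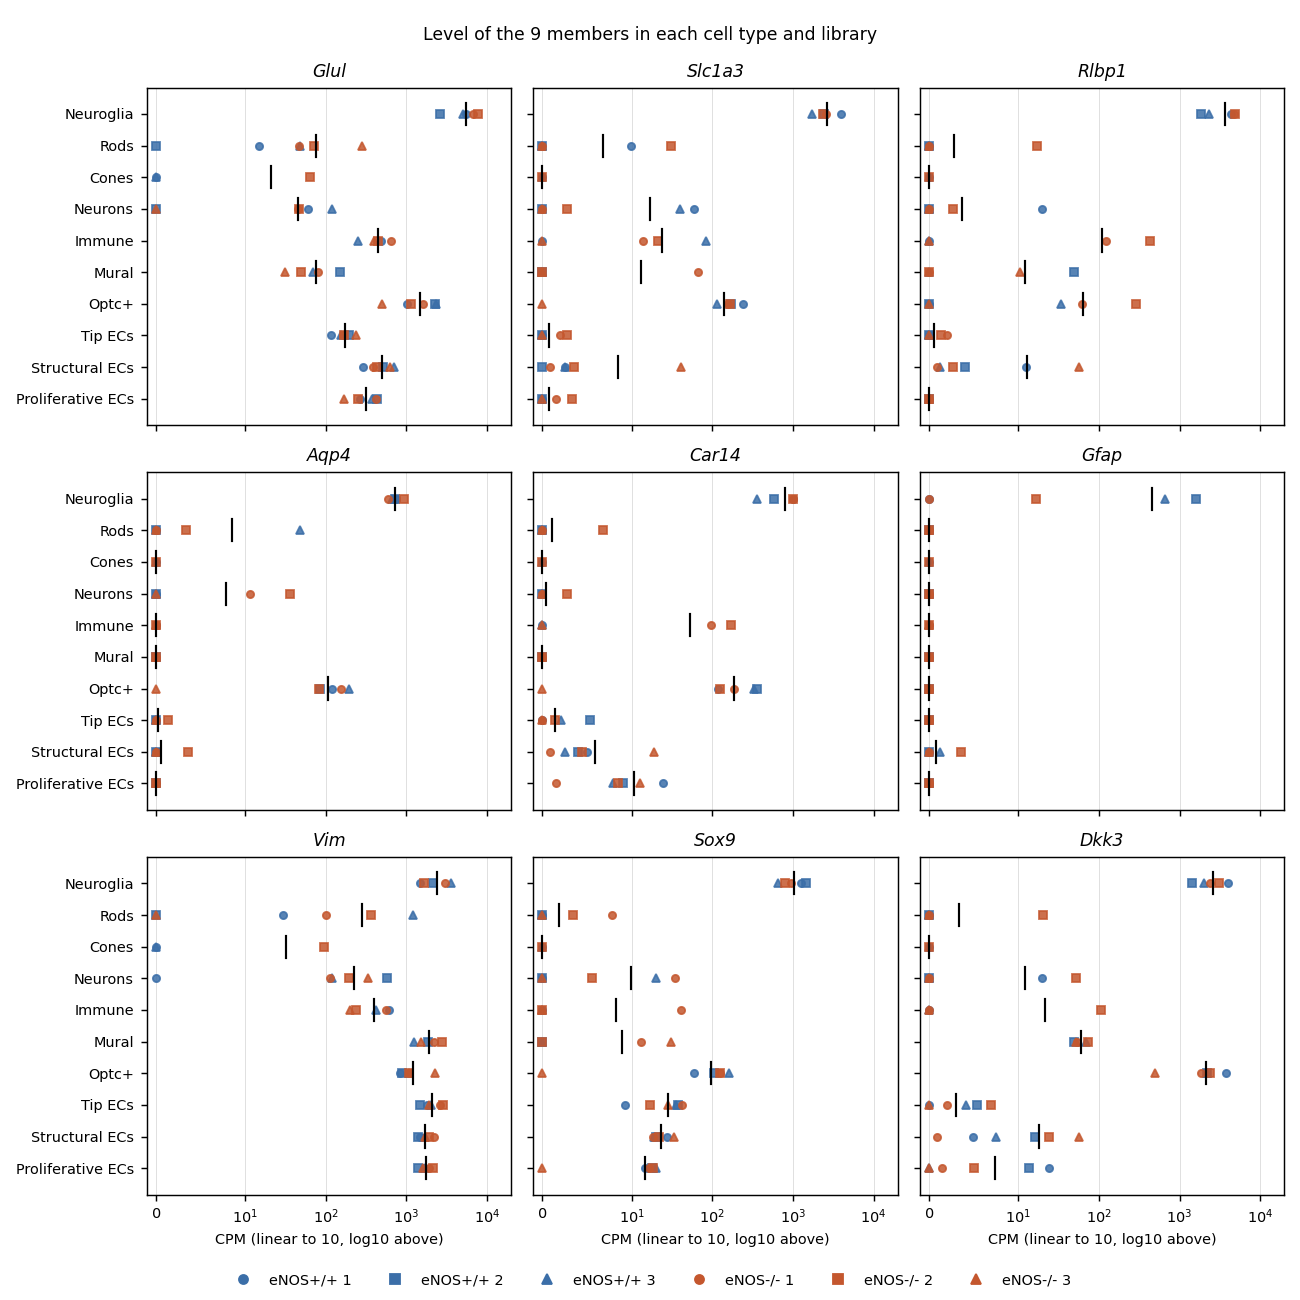
Level of each of the 9 genes (CPM, horizontal axis, linear to 10 and log10 above) in the 10 annotated cell types, 1 point per library with at least 5 cells of the type and a black bar at their mean. Neuroglia holds the highest mean in every panel, Optc+ cells reach a like level of Dkk3, and mural cells and ECs a like level of Vim.

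Glutamate handling is done by Slc1a3 (GLAST), the transporter that takes glutamate up, and Glul, glutamine synthetase, which turns it into glutamine. Slc1a3 was at 3927, 2442 and 1733 CPM in the Neuroglia of eNOS+/+ replicates 1 to 3 and at 2574 and 2351 CPM in those of eNOS-/- replicates 1 and 2, a mean of 2605 ± 806 (SD, n = 5). The Optc+ cells came next with 140.1 ± 79.4 CPM (SD, n = 6), and every other type was below 25 CPM on average. Neuroglia held 80.5% of the 441 Slc1a3 UMIs.

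Glul was at 5473, 2585 and 4961 CPM in eNOS+/+ Neuroglia and at 6608 and 7736 CPM in eNOS-/- Neuroglia. Its mean of 5473 ± 1937 CPM (SD, n = 5) exceeded that of the Optc+ cells, 1464 ± 721 CPM (SD, n = 6), by more than the summed SDs. ECs are the larger store of Glul in this enriched suspension: 66.5% of its 4446 UMIs lay in ECs and 19.9% in Neuroglia. For all genes together these shares were 79.5% and 1.32%. Among EC subtypes, Tip ECs had 172.1 ± 41.0 CPM of Glul, Proliferative ECs 319 ± 107 CPM and Structural ECs 491 ± 155 CPM (SD, each over 6 libraries). Neighbours in that order differed by less than their summed SDs, but the Structural ECs of 6 libraries, at 287 to 709 CPM, all lay above the Tip ECs, at 115 to 238 CPM. Immune cells, at 445 ± 145 CPM (SD, n = 5), lay within the spread of Structural ECs. Rods (76.4 ± 102.2 CPM, SD, n = 6) and neurons (45.1 ± 44.0 CPM, SD, n = 6) had lower means than all EC subtypes, though rods, with 278 CPM on 2 UMIs in eNOS-/- replicate 3, were within the spread of Tip ECs.

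Rlbp1 encodes CRALBP, the retinaldehyde carrier of Müller glia and of the retinal pigment epithelium (RPE). It was at 4387, 1867 and 2331 CPM in eNOS+/+ Neuroglia and at 4765 and 4818 CPM in eNOS-/- Neuroglia. With 87.3% of its 668 UMIs in Neuroglia it was the member with the largest share there. The second highest mean, 109.8 ± 184.2 CPM (SD, n = 5), was in Immune cells, and 23 of the 29 Rlbp1 UMIs in those cells lay in 10 cells that held UMIs of at least 2 of 4 RPE genes (Rpe65, Best1, Ttr and Pmel). All 10 came from eNOS-/- replicates 1 and 2, the only libraries with Rlbp1 in Immune cells. The same 10 cells held 11 of the 15 Car14 UMIs of Immune cells.

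Aqp4 forms the water channel of glial endfeet and Car14 is a membrane carbonic anhydrase. Aqp4 had the smallest SD relative to its mean of the 9 genes in Neuroglia, at 752, 718 and 657 CPM in eNOS+/+ and at 591 and 934 CPM in eNOS-/-, a mean of 730.5 ± 129.0 (SD, n = 5). The Optc+ cells held 105.6 ± 66.8 CPM (SD, n = 6), and no UMI was found in mural cells, Immune cells, cones or Proliferative ECs. Car14 was at 1003, 575 and 359 CPM in eNOS+/+ Neuroglia and at 1009 and 1000.3 CPM in eNOS-/- Neuroglia, with the lowest values resting on 4 and 6 UMIs. Neuroglia held 52.1% of its 236 UMIs and Optc+ cells 25.4%.

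Sox9, a transcription factor of glial and progenitor cells, was at 1253, 1436 and 657 CPM in eNOS+/+ Neuroglia and at 939 and 800.3 CPM in eNOS-/- Neuroglia. Although ECs held 51.6% of its 353 UMIs, their level was low and even, at 19.4 to 26.6 CPM in the 6 libraries. Dkk3, a secreted protein of the Dickkopf family, did not set Neuroglia apart from the Optc+ cells. It was at 4011, 1436, 2032, 2365 and 3068 CPM in the 5 libraries, a mean of 2582 ± 992 (SD, n = 5), and at 2147 ± 1058 CPM (SD, n = 6) in the Optc+ cells, a difference within the spread. Optc+ cells, named for opticin, a vitreous matrix protein, held 51.0% of the 1055 Dkk3 UMIs. They came second also for Glul, Aqp4, Slc1a3, Sox9 and Car14. The 6 Optc+ sums include that of eNOS-/- replicate 3, with 5 cells, and ran from 500 to 3801 CPM for Dkk3. The 5 mural genes summed to 0 to 22767 CPM in Optc+ cells, with a median of 54.5 CPM. The part of mural cells in the Optc+ values was not tested.

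Vim and Gfap are the intermediate filaments of glia, Vim being also a filament of vascular and other mesenchymal cells. Vim was at 1462, 2155 and 3586 CPM in eNOS+/+ Neuroglia and at 2991 and 1634 CPM in eNOS-/- Neuroglia. Tip ECs followed with 2105 ± 513 CPM (SD, n = 6) and mural cells with 1904 ± 585 CPM (SD, n = 5), all within the spread of Neuroglia, 2366 ± 905 CPM (SD, n = 5). ECs held 91.6% of the 17827 Vim UMIs and Neuroglia 1.65%, close to the 1.32% of all genes.

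**Figure D2:**
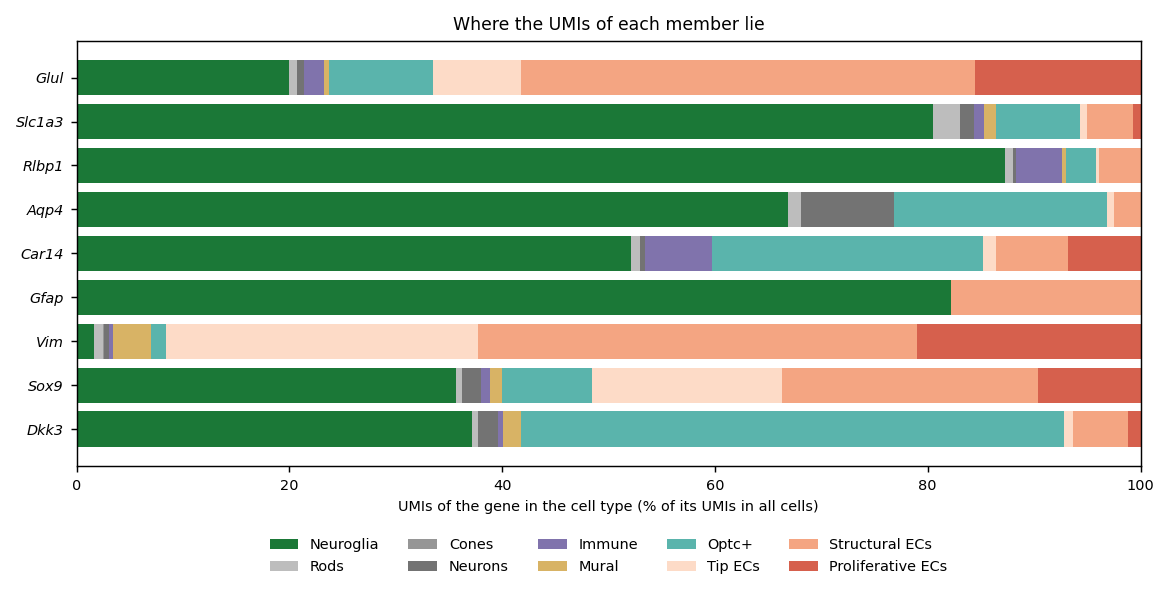
Share of each gene's UMIs (horizontal axis, percent of its UMIs in all cells) that lay in each of the 10 cell types, 1 bar per gene. Neuroglia held 87.3% for Rlbp1, 82.1% for Gfap and 80.5% for Slc1a3, but 1.65% for Vim, of which ECs held 91.6%.

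Gfap was the rarest of the 9, with 28 UMIs in the whole table, 23 of them in 10 Neuroglia cells and 5 in Structural ECs. The Neuroglia of eNOS+/+ replicates 1 to 3 held 0, 11 and 11 Gfap UMIs and those of eNOS-/- replicates 1 and 2 held 0 and 1. In CPM these are 0, 1580.0 and 657 against 0 and 16.7, so that the ranges overlapped through eNOS+/+ replicate 1. The pooled ratio of eNOS-/- to eNOS+/+ was 0.0244, with an exact 95% interval of 0.000591 to 0.151 that covers counting error only and not the spread between libraries.

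The Gfap cells also carried astrocyte genes. Of 184 Neuroglia cells, 30 held a UMI of Aldh1l1, S100b, Pdgfra or Agt, and these 30 held 22 of the 23 Gfap UMIs. Gja1, the other astrocyte gene in the table, was not counted here. Pdgfra, the receptor of retinal astrocytes for a growth factor from ganglion cells, was at 1820.5 CPM in the 10 Gfap cells and at 180.3 CPM in the others, and S100b at 2731 against 141.1 CPM. Vim was at 5234 against 1944 CPM, while Glul was at 2389 against 6780.3 CPM, Rlbp1 at 1707 against 4452 CPM, and Aqp4 at 0 against 839 CPM. Rlbp1 was nevertheless detected in 6 of the 10 cells. Cells with an astrocyte gene numbered 3, 2 and 9 in the eNOS+/+ replicates and 4 and 12 in eNOS-/- replicates 1 and 2, and they held 0, 10 and 11 Gfap UMIs in eNOS+/+ and 0 and 1 in eNOS-/-. Which cells carried Gfap was examined after its values were seen, and the 10 cells came from 8 groups of near-identical barcodes, so some may be the same cell.

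The question for ECs was whether glial RNA spilled over into them. In the 5 libraries with Neuroglia the level in ECs as a percent of that in Neuroglia was 0.0442% for Aqp4, 0.0595% for Slc1a3, 0.0601% for Rlbp1, 0.369% for Dkk3 and 0.672% for Car14, against 2.36% for Sox9, 7.71% for Glul and 86.9% for Vim. For Gfap it was 3.33% ± 5.68 (SD) over the 3 libraries with Gfap in Neuroglia, and 0.0499% without eNOS-/- replicate 2. The Aqp4 value rested on that same library and was 0 without it, and the Slc1a3 value was then 0.0392%. ECs lay below Neuroglia in 5 of 5 libraries for 7 members, in the 3 libraries with Gfap in Neuroglia for Gfap, and in 3 of 5 libraries for Vim. The part of free RNA in these EC levels was not tested.

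The share of cells with a UMI was compared with every cell thinned to 500 UMIs, which left out 86 of 184 Neuroglia cells and 2380 of 5925 ECs. Rlbp1 was then present in 81.6% of Neuroglia cells and 0.141% of ECs, and before thinning in 79.3% and 0.321%, at median depths of 541 and 682 UMIs. Rods, which should lack it, held it in 0 of 421 thinned cells, and in 0.265% of cells before thinning at a median of 361 UMIs. Slc1a3 was present in 69.4% of thinned Neuroglia cells, 0.169% of ECs and 0.475% of rods. These EC shares did not exceed those of rods beyond counting error (95% Wilson intervals of 0.0603 to 0.33% for Rlbp1 in ECs and 0 to 0.904% in rods). Glul was found in 13.6% of thinned ECs (12.5 to 14.8%), 1.9% of rods (0.966 to 3.7%) and 2.04% of neurons (1.04 to 3.97%), and before thinning in 23.1% of ECs and 2.06% of rods. Thinned Immune cells held it in a like share to ECs, 13.2% (8.14 to 20.6%), and Optc+ cells in 54.1%. All intervals and limits here cover counting error only.

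One library stood apart, in mural as well as glial genes. The 5 mural genes summed to 2160.3 CPM in the ECs of eNOS-/- replicate 3 and to 8.49 to 88.6 CPM in those of the other libraries, while the 5 EC genes, at 4632 CPM, lay within the 4215 to 5061 CPM of the others. The part of mural RNA or cells in the EC values of this library was not tested. The library had no Neuroglia cell, and its ECs held 30.7 CPM of Rlbp1 against 6.06, 1.52, 0.657, 0.864 and 1.65 CPM in the other libraries. Slc1a3 was at 22.5 CPM there and at 0 to 3.3 CPM elsewhere, and Dkk3 at 30.7 CPM against 1.3 to 14.4 CPM. A group of 6 Structural ECs with UMIs of at least 2 of Rlbp1, Aqp4, Slc1a3, Dkk3 and Car14 held 42 of the 47 UMIs of these genes among the library's 288 ECs. Among the 3589 UMIs of these 6 cells were 29 of Glul, 12 of Rlbp1 and 11 of Slc1a3. None of the 6 had a UMI of the EC genes Pecam1, Cdh5 or Cldn5, which 66.7% of the library's Structural ECs and 75.7% of all ECs carried. Without them Rlbp1 was at 6.19 CPM, Slc1a3 at 0, Dkk3 at 2.06 CPM and Glul at 377 CPM in place of 434 CPM. In all libraries 9 ECs had UMIs of at least 2 of these 5 genes, all of them Structural ECs, with 29.0% of the UMIs of these genes in ECs. A UMI of Pecam1, Cdh5 or Cldn5 was found in 1 of the 9. The 6 cells fell into 4 groups of near-identical barcodes and were chosen after their values were seen.

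**Figure D3:**
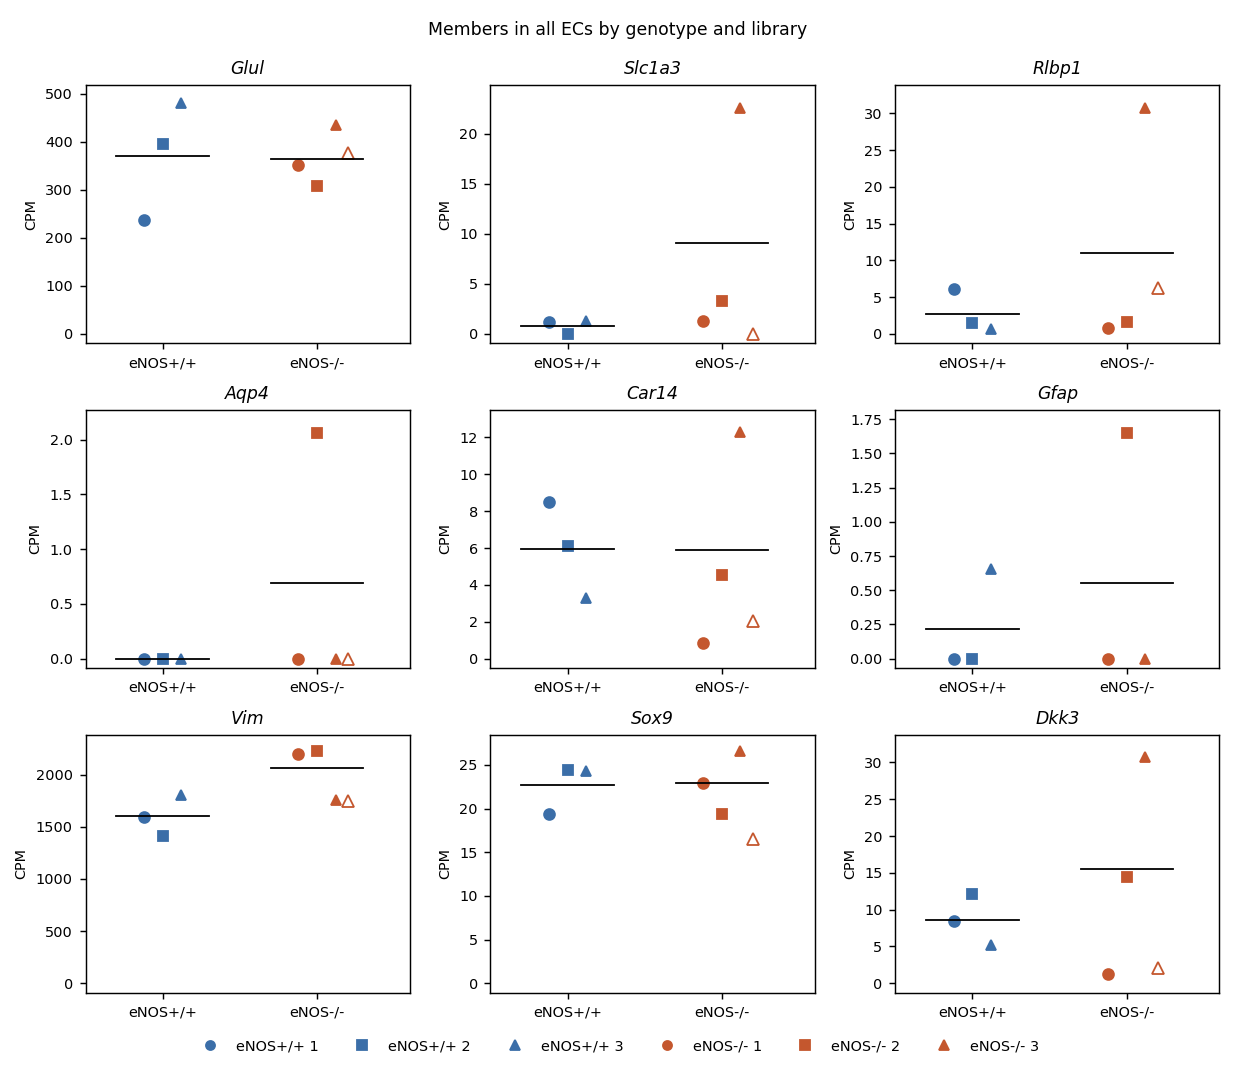
Level of each gene (CPM, vertical axis) in all ECs by genotype, 1 filled point per library and a line at the mean of 3. The open triangle gives eNOS-/- replicate 3 without the 6 cells named in the text, where Rlbp1 went from 30.7 to 6.19 CPM and Slc1a3 from 22.5 to 0 CPM. No open triangle is drawn for Gfap.

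The comparison of genotypes asked whether loss of eNOS, an enzyme of ECs, went with another state of the glia. In Neuroglia 2 of 9 members, Glul and Rlbp1, were higher in both eNOS-/- libraries than in all 3 eNOS+/+ libraries and none was lower in both. Such a separation upwards was found for 9.32% and downwards for 13.1% of the 472 genes tested. In the edgeR quasi-likelihood fit, adjusted over the 472 genes, 0 members were called, and 0 genes in all (0% called). At an unadjusted p under 0.05 there were 28 genes, 5.93%, and DESeq2 called 0. With eNOS-/- replicate 3 absent, the comparison rests on 3 libraries against 2.

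Glul had means of 4340 ± 1541 CPM (SD, n = 3) in eNOS+/+ and 7172 ± 797 CPM (SD, n = 2) in eNOS-/- Neuroglia. The log2 fold change was 0.83 with a standard error (SE) of 0.42 and an edgeR adjusted p of 0.782. Rlbp1 had means of 2862 ± 1341 CPM (SD, n = 3) and 4792 ± 37.7 CPM (SD, n = 2), and a log2 fold change of 0.83 (SE 0.46, edgeR adjusted p = 0.836). Without eNOS+/+ replicate 2, the library with 10 Neuroglia cells, the values were 0.49 for Glul and 0.53 for Rlbp1, and without eNOS+/+ replicate 1 Rlbp1 was at 1.33. Leaving out the Neuroglia cells with an astrocyte gene or Gfap, an alternative chosen after seeing the data, gave 0.82 (SE 0.35) for Glul and 0.93 (SE 0.38) for Rlbp1, with edgeR adjusted p-values of 0.488 and 0.472.

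The other members lay closer together or overlapped more. The log2 fold change was 0.70 (SE 0.53) for Car14, 0.27 (SE 0.50) for Aqp4, 0.20 (SE 0.50) for Dkk3, 0.07 (SE 0.49) for Vim, -0.02 (SE 0.47) for Slc1a3 and -0.18 (SE 0.51) for Sox9. Their edgeR adjusted p-values ran from 0.842 to 0.989, and the genes of the fit had a median log2 fold change of -0.06. SEs of about that size leave room for sizeable differences in either direction. Gfap had an edgeR adjusted p of 0.426 on the 23 UMIs given above.

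**Figure D4:**
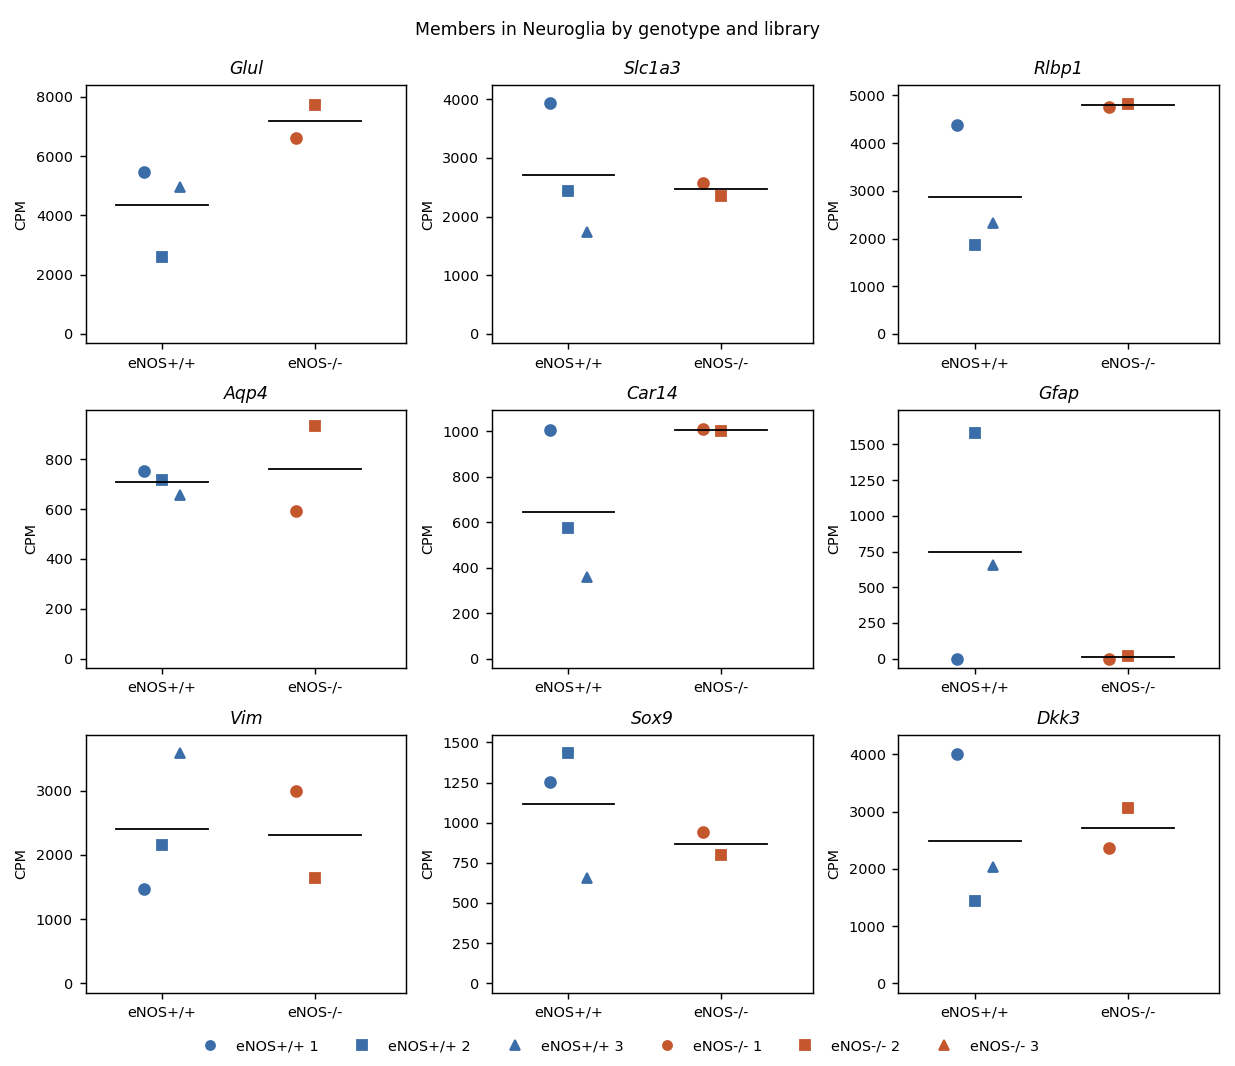
Level of each gene (CPM, vertical axis) in Neuroglia by genotype, 1 point per library and a line at the mean of 3 eNOS+/+ and 2 eNOS-/- libraries, eNOS-/- replicate 3 having no Neuroglia cell. The points of the genotypes are separate for Glul and Rlbp1 and overlap for the other 7.

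No other gene of the glial lists that could be tested passed the test in Neuroglia. Of the 12 further Müller glia genes, 6 passed the filter on low counts, 0 were called, and 3 lay on each side of 0, with a median log2 fold change of 0.14 against -0.06 for all genes tested. Hes1, the Notch effector that keeps glial identity, had the smallest p, with a log2 fold change of -1.79 (SE 0.53, edgeR adjusted p = 0.404). Gpr37, a receptor for prosaposin, stood at 0.97 (SE 0.57), Prdx6, an antioxidant enzyme, at 0.49 (SE 0.50) and Aldoc, the glial aldolase, at 0.41 (SE 0.49). Of 12 genes of reactive gliosis, 2 could be tested and 0 were called: Cp, the iron oxidase ceruloplasmin, at 0.58 (SE 0.42) and Socs3, the feedback inhibitor of STAT3 signalling, at -0.22 (SE 0.98). Among the untested, Ednrb, an endothelin receptor, had 128.5 ± 137.9 CPM and Nes, the filament nestin, 128.4 ± 107.0 CPM in Neuroglia (SD, n = 5). Serpina3n, Timp1 and Fgf2, named because their count was 0, had no UMI in Neuroglia, which allows up to 22.0 CPM over the 5 libraries. Pdgfra, the 1 of 5 astrocyte genes that could be tested, stood at 1.15 (SE 1.01, edgeR adjusted p = 0.887). Its fitted change was upwards, whereas Gfap had fewer UMIs in eNOS-/- Neuroglia.

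In all ECs 0 of the 4 members that passed the filter, Glul, Vim, Dkk3 and Sox9, were called between genotypes, beside 2 of 9483 genes (0.0211%). The filter on low counts left Rlbp1, Slc1a3, Aqp4, Car14 and Gfap untested. Vim came nearest, at 1595, 1415 and 1799 CPM in eNOS+/+ and at 2193, 2230 and 1753 CPM in eNOS-/-, ranges that overlapped through replicate 3 of either genotype. Its log2 fold change was 0.35 (SE 0.21, edgeR adjusted p = 0.892). It was 0.49 (SE 0.25) in Tip ECs, 0.33 (SE 0.23) in Structural ECs and 0.26 (SE 0.22) in Proliferative ECs, where 0 members were called beside 0.0181%, 0.0264% and 0.0217% of all genes. In Structural ECs the Vim ranges did not overlap, at 1377 to 1697 CPM in eNOS+/+ and 1708 to 2174 CPM in eNOS-/-, as was the case upwards for 5.74% and downwards for 4.79% of the 7577 genes. No other tested member was separated in ECs, where the shares of all genes separated upwards and downwards were 5.39% and 5% in all ECs, 4.94% and 5.41% in Tip ECs and 5.36% and 5.43% in Proliferative ECs. Without eNOS-/- replicate 3, whose ECs held the mural genes noted above, Vim was at 0.44 in all ECs, 0.63 in Tip, 0.38 in Structural and 0.35 in Proliferative ECs, with edgeR adjusted p-values of 0.463 to 0.663. The 3 subtypes come from the same libraries and are not independent.

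Glul was at 236, 395 and 481 CPM in eNOS+/+ ECs and at 351, 308 and 434 CPM in eNOS-/- ECs, with a log2 fold change of -0.04 (SE 0.25, edgeR adjusted p = 0.993), and -0.20 without eNOS-/- replicate 3. The eNOS-/- values lay within the range of the eNOS+/+ values. Sox9 had a log2 fold change of -0.05 (SE 0.30), and -0.13 without that library. For Dkk3 it was 0.57 (SE 0.78) with eNOS-/- replicate 3 and -0.0379 without it.

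**Figure D5:**
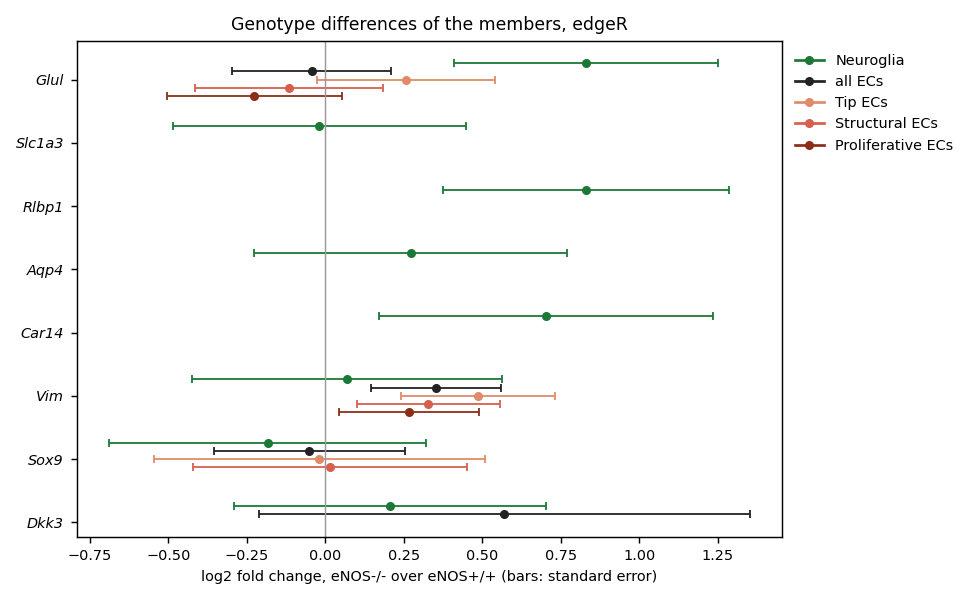
Log2 fold change of eNOS-/- over eNOS+/+ (horizontal axis, edgeR) with its standard error for the members that passed the filter in Neuroglia, all ECs and the 3 EC subtypes. Gfap is not drawn because its fitted change rests on 1 UMI in eNOS-/-. Glul and Rlbp1 in Neuroglia lie at 0.83, and no value passed the test.

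Whether the genotype difference itself differed between Neuroglia and ECs was tested in one fit over both sums of the 5 libraries. The test called 0 of 8314 genes (0% called) and 0 of 9 members, with 324 genes (3.9%) at an unadjusted p under 0.05 and 0 genes by DESeq2. All genes of this fit were shifted by a median of 0.50 on the log2 scale (0.24 with RLE scaling and 0.12 with DESeq2). The SEs of the members ran from 0.44 to 2.42, and on simulated data this fit found few of the changes made, so that a count of 0 says little here. Glul had a difference of 1.42 (SE 0.44, edgeR adjusted p = 0.985). Without eNOS+/+ replicate 1 it was 2.10 with an edgeR adjusted p of 0.00258, past the threshold. That setting called 4 genes, all of them upwards, and all genes of its fit were shifted by a median of 0.79.

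Over the 54 sums of 1 cell type in 1 library, the genes whose log2(CPM + 10) ran most like that of a member were few and recurring. Among 11745 genes with at least 50 UMIs, Pdpn, the membrane glycoprotein podoplanin, was among the 3 nearest for Aqp4, Slc1a3, Dkk3, Sox9 and Car14, with Pearson r of 0.94, 0.91, 0.90, 0.86 and 0.96. Spon1, a matrix protein, was among them for Rlbp1 (0.89), Slc1a3 (0.91), Sox9 (0.87) and Car14 (0.94), and Lhx2, a transcription factor of retinal progenitors and Müller glia, for Aqp4 (0.92), Dkk3 (0.91) and Car14 (0.89). Crym, a thyroid hormone binding protein, was nearest to Rlbp1 (0.92), Tsc22d4 to Glul (0.81), Serpinh1, a collagen chaperone, to Vim (0.90), Ddr1, a collagen receptor, to Slc1a3 (0.94) and Utp14b to Sox9 (0.88). Gfap, with 28 UMIs, was too rare for such a comparison. Between members r ran from 0.21 for Vim and Slc1a3 to 0.90 for Aqp4 and Slc1a3. The sums share libraries and cell types, and these r describe them only.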

How the data were processed

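Retinal cells of 6 Drop-seq libraries, 3 per genotype, were analysed from a deposited table of raw UMI counts per gene and cell, with the authors' cell annotation. Per the labels and the study's methods, reads were processed with bcl2fastq and kb-python on mouse build GRCm38. Seurat 3 was used to keep cells with at least 100 genes and at most 10% mitochondrial UMIs, and red blood cell and RPE clusters were removed. The annotation held the 3031 and 5913 cells stated for eNOS+/+ and eNOS-/-, but 2121 and 3804 ECs where the series text gives 2044 and 3334. Doublet removal was not given in the sources used here and none was done.

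UMIs were summed per annotated cell type and library, using sums of at least 5 cells. The study compared cells. Here the sums were tested, because cells of 1 library are not replicates. Genotypes were compared with the quasi-likelihood test of edgeR 4.0.16 (R 4.3.3) with filterByExpr, TMM scaling and Benjamini-Hochberg adjustment over all genes tested, at a limit of 0.05, and DESeq2 1.42.0 was an alternative. Fold changes are eNOS-/- over eNOS+/+. Nothing beyond separately pooled retinas describes the replicates, and p-values measure the spread between these samples. Cell types came from clustering the same counts, so types were not tested against each other. Library depths were 617246 to 3350799 UMIs with medians of 408 to 778 UMIs per cell, and the Neuroglia sums held 6962 to 59981 UMIs. The fits were tested on simulated data with log2 changes of 2. Those within a cell type found most changed genes, 79 of 118 in Neuroglia and 189 of 200 in all ECs. The changed genes were 118 of 472 in Neuroglia, a larger share than the 200 of 9483 in all ECs. The Neuroglia recovery may therefore be too high for data with fewer changes. Beside the changed genes, false calls numbered 1 in Neuroglia, 16 in all ECs, 9 in Tip, 13 in Structural and 18 in Proliferative ECs. The fit of the difference between Neuroglia and ECs found 4 of 200. Smaller changes were not simulated, so how often they would be found is not known. With no gene changed, false calls numbered 4 for all ECs, 4 for the Structural subtype and 2 for the Proliferative one. The data gave 2, 2 and 1 calls there. The other fits made no false call in that run.

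All members were named, with up to 4 genes of each further list by smallest p or highest level, and the 3 most alike genes of each member. The members and lists were chosen with earlier results of these data known. Alternatives were other scaling, no filter, removal of mitochondrial genes, cells with at least 500 UMIs, near-identical barcodes (same first bases) as 1 cell, other minimum cell numbers, the replicate number as a block and leaving out each library. Python 3.11.15 with scipy 1.17.1 was used for levels, intervals and the exact permutation test. Promoters came from RefSeq.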

Additional observations from a re-analysis of the deposited data

Results flagged for a closer look

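Each member was examined for a single library far from the rest in the 6 libraries of ECs and the 5 of Neuroglia, 18 sets in all. In 3 of them, all in ECs, 1 value lay past Dixon's 95% limit, a test that passes some sets by chance alone. In the ECs, Rlbp1 was at 30.7 CPM and Slc1a3 at 22.5 CPM in eNOS-/- replicate 3, each the highest of the 6 libraries, and both came mostly from the 6 cells described above. Aqp4 was at 2.06 CPM in the ECs of eNOS-/- replicate 2, on 5 UMIs, and at 0 in the ECs of the other libraries. With the other values all at 0, any level above 0 would lie past the limit.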

How the results depend on the processing

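Of 659 values recomputed under another setting, 585 kept their direction and side of the limit or moved little. Log2 changes of members kept their direction in 150 of 156 cases, and in 85 of 103 with 1 library left out, and 0 were called between genotypes within a cell type. Without the filter on low counts 3 genes were called in Neuroglia, 84 in all ECs, 8 in Tip, 74 in Structural and 10 in Proliferative ECs, and Slc1a3 was at 0.40 and Sox9 at 0.25 in Neuroglia, where the median of all genes was then 0.85. Cells with at least 500 UMIs gave 1 called gene in all ECs, 2 in Tip and 0 in Structural ECs, and a median level of members in ECs of 0.296% of that in Neuroglia, against 0.672%. With near-identical barcodes as 1 cell the calls were 1, 2, 0 and 8 in all, Tip, Structural and Proliferative ECs, Vim was at -0.0579 and Slc1a3 at 0.0798 in Neuroglia, and the difference of Vim between Neuroglia and ECs was -0.0196 (-0.20 with DESeq2, -0.21 with RLE scaling). DESeq2 called 2 genes in Tip ECs. The causes were not tested.

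With the replicate number as a block, 1 gene was called in Neuroglia, 11 in Structural and 3 in Proliferative ECs, Glul in all ECs was at 0.0141 and Sox9 at 0.00651, and the Neuroglia share gave an exact permutation p of 0.5. In all ECs the deviations of same-numbered libraries correlated at 0.315, -0.129 and 0.288, and those of differently numbered libraries at -0.388 to 0.278. These values do not decide whether the numbers pair the samples. In Neuroglia the values were -0.0261 and -0.0740. With eNOS-/- replicate 3 absent they mirror those of the differently numbered libraries by construction, so they cannot show pairing or its absence.

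Leaving out 1 library at a time gave 0 to 78 called genes in all ECs, 0 to 25 in Tip, 0 to 28 in Structural and 0 to 73 in Proliferative ECs, the highest each without eNOS-/- replicate 3, and 0 in Neuroglia and 0 to 4 in the test of the difference. The Neuroglia share differed by -1.17 to -0.0123 points and the median level in ECs ran from 0.343 to 0.819%. Ranges of log2 changes that crossed 0 were -0.28 to 0.22 for Glul, -0.0379 to 1.34 for Dkk3 and -0.14 to 0.0781 for Sox9 in all ECs, -0.40 to 0.25 for Glul in Structural ECs, and in Neuroglia -0.28 to 0.52 for Vim, -0.15 to 0.67 for Aqp4, -0.28 to 0.46 for Slc1a3, -0.13 to 0.78 for Dkk3 and -0.48 to 0.0459 for Sox9. The difference between Neuroglia and ECs ran from 0.89 to 2.10 for Glul and from -0.10 to 0.54 for Vim. Depth limits Gfap (28 UMIs in all) and the Neuroglia of eNOS+/+ replicate 2 (6962 UMIs).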
